A study of Mus musculus with 2 samples.

Results

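Galectins are secreted and cytosolic lectins that bind galactose-containing glycans, and the 5 genes described here are those of galectin-1 (Lgals1), galectin-3 (Lgals3), galectin-8 (Lgals8), galectin-9 (Lgals9) and the secreted glycoprotein that binds galectins, Lgals3bp. They were taken as a fixed list from 31053 genes in the count files, and all 5 were found by symbol. The data were 2 droplet single-cell libraries of mouse ear epidermis, 1 per treatment. Both came from wild-type female FVB/NJ mice, 8 weeks old, and both held sorted live cells positive for CD45 and negative for EpCAM and MHC-II. For one library a Skint1 antibody (anti-Skint1) had been injected into the ear skin 7 d earlier, and for the other a rat IgG2a isotype control antibody. By the study's description each group had n = 1, with n counting individual mice unless stated otherwise. Skint1 is a keratinocyte surface protein required for the canonical Vγ5Vδ1 dendritic epidermal T cells (DETCs), and the comparison asked what DETCs look like when it is blocked in adult skin. Because each treatment had 1 library, no difference between treatments had a replicate check and none was tested. Every interval below is a 95% interval that covers counting error only.

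Galectins differ in build. Galectin-1 is a small lectin that pairs with itself, galectin-3 joins a single lectin domain to a flexible tail through which it oligomerizes, and galectins 8 and 9 carry a pair of different lectin domains in one chain. Cross-linking by galectins holds glycoproteins such as CD45, CD43, CD44 and CD7 in lattices on T cells, galectin-1 can trigger T cell death, galectin-9 binds the inhibitory receptor TIM-3, and galectins 3 and 8 mark damaged endosomes inside cells. In skin, galectin-3 and galectin-7 are abundant in keratinocytes, the cells that DETC dendrites touch.

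In the GENCODE annotation of GRCm38, Lgals1 (ENSMUSG00000068220) lay on the plus strand at chr15:78926725-78930465, and Lgals3 (ENSMUSG00000050335) on the plus strand at chr14:47367751-47386160. Lgals8 (ENSMUSG00000057554) lay on the minus strand at chr13:12439415-12464944. Lgals9 (ENSMUSG00000001123) and Lgals3bp (ENSMUSG00000033880) both lay on the minus strand of chromosome 11, at chr11:78962974-78984946 and chr11:118392751-118402092. All 5 were annotated as protein coding. RefSeq promoter windows, which run from 250 bases before to 50 bases after the start of a gene, were found for 4 of the 5 genes and not for Lgals1. They were searched for 3 motifs on both strands: the AP-1 site TGANTCA, the interferon regulatory factor (IRF) core AANNGAAA and the Sp1 box GGGCGG, where N is any base. The AP-1 and IRF motifs were chosen because DETCs were also ordered by immediate early and by interferon-stimulated transcripts. That reason does not cover the Sp1 box. Of 32851 windows of this length, 7.81% held the AP-1 letters, 23.9% the IRF letters and 35.7% the Sp1 letters. The 3 windows that held a match are shown. The Lgals3 window (chr14:47373610-47373909, plus strand, GRCm38.p6), which lies within the annotated gene downstream of its first annotated base, held 2 Sp1 matches. The Lgals9 window (chr11:78984875-78985174, minus strand) held 3 IRF matches and the Lgals3bp window (chr11:118401910-118402209, minus strand) 1. None of the 4 windows held the AP-1 letters, and the Lgals8 window (chr13:12461689-12461988, minus strand), which like that of Lgals3 lies within the annotated gene, held none of the 3 motifs. Capitals mark the matches in these reference sequences, which are not read from FVB/NJ mice.
Lgals3: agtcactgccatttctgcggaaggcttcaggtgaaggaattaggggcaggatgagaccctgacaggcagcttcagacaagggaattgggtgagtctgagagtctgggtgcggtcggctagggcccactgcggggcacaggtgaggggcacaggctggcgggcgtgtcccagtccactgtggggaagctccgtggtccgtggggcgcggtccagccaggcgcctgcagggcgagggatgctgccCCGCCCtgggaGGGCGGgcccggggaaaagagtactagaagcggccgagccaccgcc
Lgals9: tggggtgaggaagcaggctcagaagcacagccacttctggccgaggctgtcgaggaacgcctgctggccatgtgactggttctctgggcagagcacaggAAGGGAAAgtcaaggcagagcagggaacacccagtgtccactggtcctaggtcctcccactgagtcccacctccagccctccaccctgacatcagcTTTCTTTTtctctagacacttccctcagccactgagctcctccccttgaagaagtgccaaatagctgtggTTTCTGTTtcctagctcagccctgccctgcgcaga
Lgals3bp: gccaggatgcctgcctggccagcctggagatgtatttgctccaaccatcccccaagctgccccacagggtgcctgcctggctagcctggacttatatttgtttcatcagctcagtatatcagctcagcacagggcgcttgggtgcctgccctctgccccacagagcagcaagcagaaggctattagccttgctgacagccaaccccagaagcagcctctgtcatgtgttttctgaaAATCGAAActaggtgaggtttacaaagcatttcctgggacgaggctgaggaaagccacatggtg
A match is a description of these letters and not evidence of a bound factor.

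The isotype library held 27272211 unique molecular identifiers (UMIs, 1 per captured transcript molecule) and the Skint1 antibody library 32450957. Keeping barcodes of 500 to 2500 detected genes whose mitochondrial UMIs made up no more than 12% left 4242 and 5961 cells, with a median of 4046.5 and 3604 UMIs. The 2 libraries shared 5 cell barcodes. DETCs were cells with at least 3 UMIs of Trdc and at least 3 of the CD3 genes and none of Trac, Cd4, Cd8a or Cd8b1, which gave 3544 cells (83.5% of cells) and 4945 cells (83.0%). Of 6 DETC markers, 3 (Trdc, Cd3d and Cd3e) were part of this rule and Ptprc encodes the sorted CD45, and the canonical receptor genes Tcrg-V5 and Trdv4, which the rule did not use, were both detected in the class in each library. Cells with Trac and no Trdv4 formed an αβ T class of 197 and 213 cells, and cells with at least 3 UMIs of Il7r, Rora and Gata3, at most 2 of CD3 genes and none of Trdv4 formed an ILC class of 82 and 139 cells. Cells outside these classes made up 10.1% and 11.4%.

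The smaller classes were mixed. Of αβ T cells, 18 (9.14%) in the isotype library and 44 (20.7%) after Skint1 antibody also held at least 3 Trdc UMIs, and 9 and 14 cells met both the αβ T and the ILC rule. Markers of dermal γδ T cells summed to 214 UMIs per 1000000 UMIs of the class (CPM) in the αβ T class of each library, against 37.5 and 39.5 CPM in DETCs. Of 7 ILC markers, Il7r, Rora and Gata3 were part of the ILC rule, and Ncr1 and Il1rl1 were at 0 in the isotype ILC class. The 7 summed to 1778 and 1923 CPM in the ILC class, against 2283 and 2249 CPM in αβ T cells with Foxp3. The name ILC thus stands for the rule and not for an identified cell type. In the ILC class, the 9 keratinocyte markers summed to 697 and 5826 CPM, against 30.8 and 48.0 CPM in DETCs. The 3 antigen presentation genes summed to 1230 and 1726 CPM there, against 16.0 and 14.0 CPM in DETCs, and the 8 myeloid markers to 118 and 294 CPM, with Csf3r and S100a8 at 0 in both libraries. Values are therefore also given for narrowed classes, chosen after the data were seen. The narrowed αβ T class left out cells with at least 3 Trdc UMIs or meeting the ILC rule (170 and 155 cells). The narrowed ILC class left out cells meeting the αβ T rule or with at least 3 UMIs over the keratinocyte, myeloid and antigen presentation genes (60 and 93 cells), after which, by the construction of the filter, the keratinocyte markers summed to 41.6 and 45.1 CPM, the antigen presentation genes to 53.0 and 82.7 CPM and all 8 myeloid markers to 0. Markers of dermal γδ T cells still summed to 222 and 168 CPM in the narrowed αβ T class.

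DETCs were rich in Lgals1 and Lgals3 transcripts and held far fewer of the other 3. Lgals1 stood at 1385 CPM in isotype DETCs (interval 1366 to 1404, from 20307 UMIs) and at 1593 CPM in Skint1 antibody DETCs (1575 to 1612, from 29806 UMIs). Lgals3 stood at 859.7 and 903.3 CPM. Lgals3bp came next, at 84.2 and 72.5 CPM, followed by Lgals8 at 37.9 and 37.6 CPM and Lgals9 at 22.3 and 23.4 CPM. These levels count transcript 3′ ends, so each molecule counts once whatever its length, and the intervals of neighbors in this order did not overlap in either library. The rank from Lgals1 down to Lgals9 was therefore the same in both libraries.

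**Figure D1:**
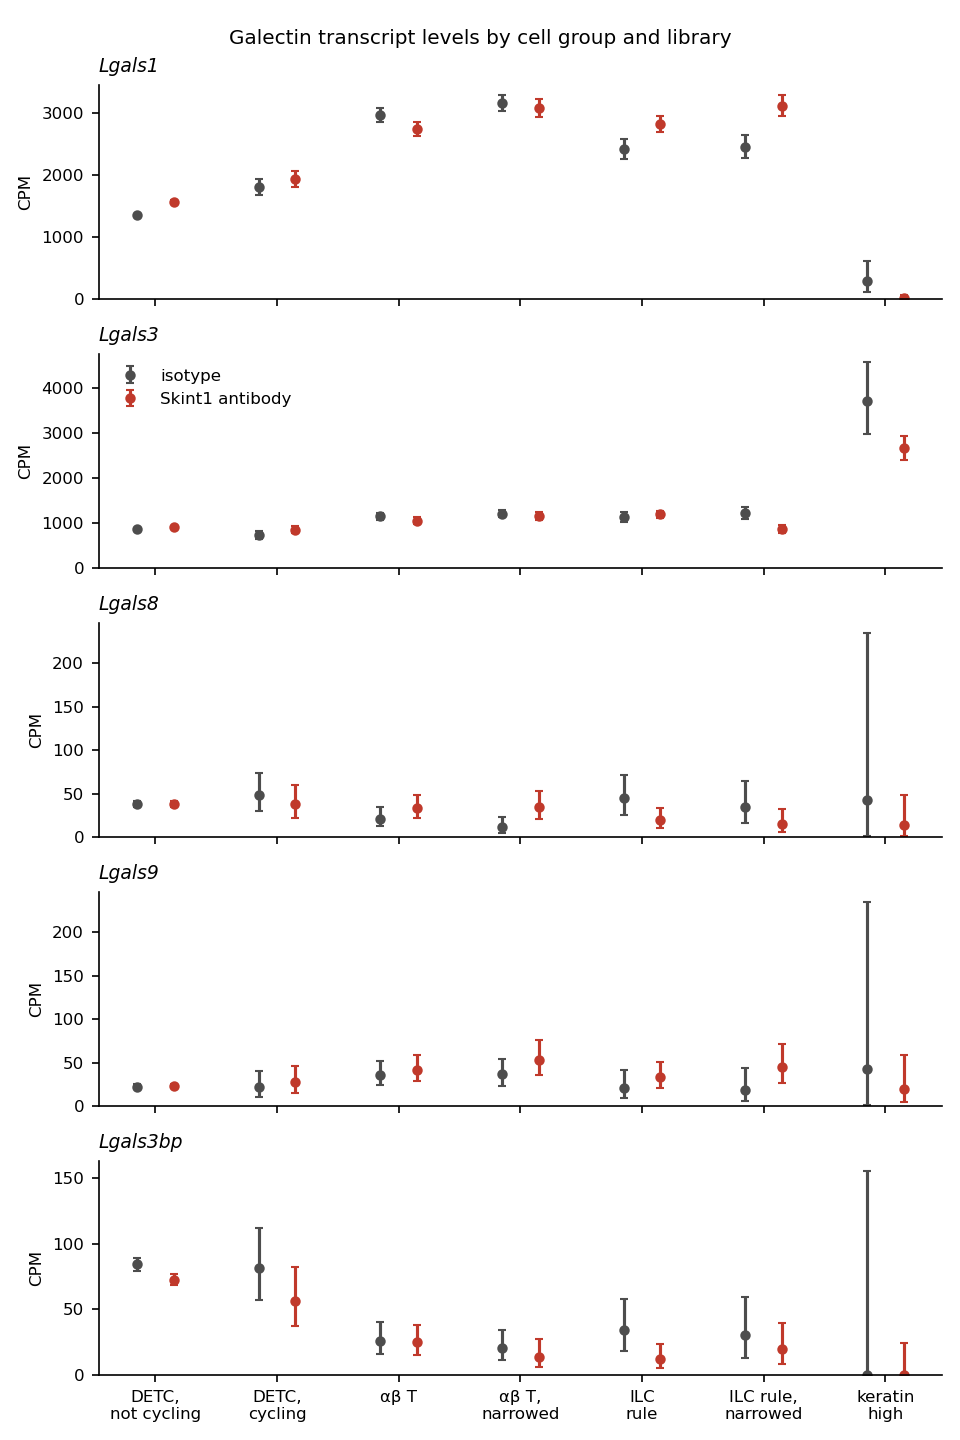
Transcript levels of the 5 genes in CPM (linear axes from 0) in DETCs outside and in the cell cycle, αβ T cells, the ILC class, the narrowed forms of both and keratin-high barcodes, with isotype in gray and Skint1 antibody in red. Points are summed levels, bars 95% counting intervals. Lgals1 is higher in αβ T and ILC cells than in DETCs, Lgals3bp is higher in DETCs, and keratin-high barcodes hold the highest Lgals3 and little Lgals1.

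RNA free in the suspension could give only a small share of these levels. Keratin transcripts in DETCs, taken as if all of them were free RNA, set that RNA at no more than 1.79% of UMIs in isotype DETCs and 2.14% in Skint1 antibody DETCs. By the composition of barcodes with 1 to 100 UMIs, it could give at most 2.35% and 2.59% of the Lgals1 level in DETCs, and 1.91% and 2.14% of the Lgals3 level. For the other 3 genes it could give between 0.922% and 1.84%. In αβ T cells, the highest such share was 4.37%, for Lgals3bp in the isotype library. Lgals7, the keratinocyte galectin, differed. It reached only 9.35 and 12.2 CPM in DETCs, and free RNA at that level could give 75.2% and 96.4% of it. In αβ T cells the same estimate lay above the Lgals7 level, at 356% and 124% of it.

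With each cell thinned to 2000 UMIs, Lgals1 was detected in 84.9% of isotype DETCs (83.6 to 86.1, 2894 of 3410 cells) and in 87.5% of Skint1 antibody DETCs (86.5 to 88.4, 4148 of 4743 cells). Lgals3 was detected in 75.2% and 76.7%. These 2 galectins were thus found in most DETCs at this depth, and the thinning left out 134 and 202 shallower DETCs. Lgals3bp was detected in 15.4% and 13.3% of DETCs, Lgals8 in 7.30% and 7.27%, and Lgals9 in 4.08% and 3.94%. Lgals7, the keratinocyte galectin, was detected in 1.79% and 1.75%, with up to 7 and 18 UMIs in a single cell, so its UMIs were not evenly spread. The scarce members were therefore all above the Lgals7 share, with median depths before thinning of 4070 and 3627 UMIs. Without thinning, the shares of DETCs with Lgals1 were 92.9% and 93.0%.

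Among DETCs, Lgals1 varied more than counting alone would give. At 2000 UMIs a DETC held a mean of 2.75 Lgals1 UMIs in the isotype library and 3.12 after Skint1 antibody, with up to 17 and 23 UMIs in a cell. The variance over cells was 2.05 times the mean in both libraries, where a count with no other source of spread has a value of 1. Lgals3 had means of 1.73 and 1.77 UMIs and a ratio of 1.49 and 1.45. For Lgals8, Lgals9 and Lgals3bp, at means under 1 UMI, the ratio can lie near 1 even with moderate spread between cells and is not read. Fewer DETCs held no Lgals1 UMI and more held many after Skint1 antibody: 15.1% of isotype and 12.5% of Skint1 antibody DETCs held no Lgals1 UMI, and 1.55% and 2.26% held at least 10. Lgals3 had near-identical distributions. Cells with more Lgals3 had slightly more Lgals1, from a mean of 2.45 Lgals1 UMIs in isotype DETCs with no Lgals3 UMI to 3.16 in those with at least 3, and from 2.66 to 3.72 in Skint1 antibody DETCs. Over cells of a library, which share depth and library, Pearson's r was 0.14 (n = 3410) and 0.17 (n = 4743), a weak relation in sparse counts that is given as a description only.

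**Figure D2:**
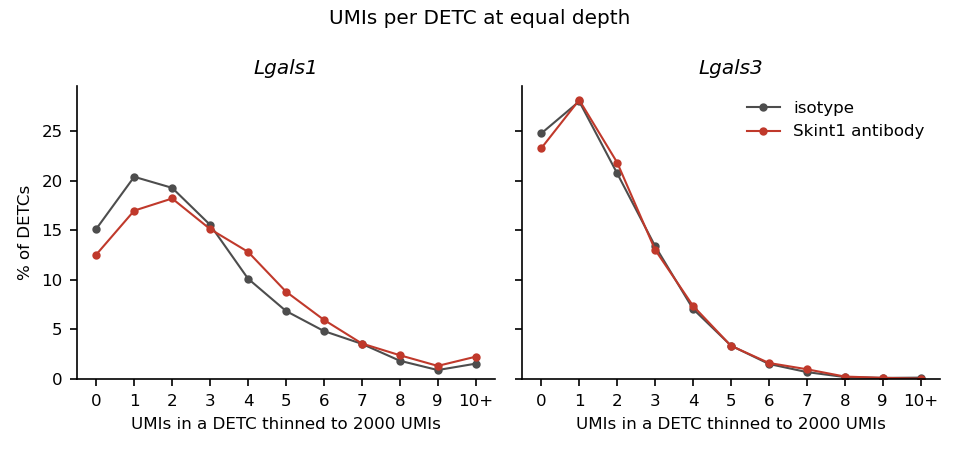
Share of DETCs (percent, linear axis from 0) holding a given number of Lgals1 or Lgals3 UMIs after each cell was thinned to 2000 UMIs, with isotype in gray and Skint1 antibody in red; the last point pools 10 or more. The Lgals1 curve of the Skint1 antibody library lies lower at 0 to 2 UMIs and higher from 4 UMIs on, while both Lgals3 curves lie close together.

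Between treatments, Lgals1 was higher and Lgals3bp lower in DETCs of the Skint1 antibody library, both by less than 1.5-fold. The log2 ratio of Lgals1 (Skint1 antibody over isotype) was 0.20 (0.18 to 0.23), or 1.15-fold, which placed it at the 98.3rd percentile of 2920 genes with at least 50 CPM in either library. Lgals3 had a log2 ratio of 0.07 (0.04 to 0.10), against a median of -0.03 over those genes. Lgals3bp had a log2 ratio of -0.22 (-0.33 to -0.10) and stood at the 5.45th percentile. The ratios of Lgals8 (-0.01, -0.17 to 0.15) and Lgals9 (0.07, -0.14 to 0.28) had intervals that held 0. None of the 5 genes was past 1.5-fold, and 0.24% of all genes with at least 50 CPM were. From here on, shares, percentiles and medians of all genes refer to genes with at least 50 CPM in either group of the comparison. How far apart 2 libraries of the same treatment would lie was not measured.

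Outside DETCs, the Lgals1 difference did not have the same sign in every class. In αβ T cells, Lgals1 stood at 2971 CPM in the isotype library and 2746 CPM after Skint1 antibody, a log2 ratio of -0.11 (-0.20 to -0.03). In the narrowed αβ T class it stood at 3163 and 3086 CPM, and the log2 ratio was -0.04 (-0.13 to 0.06). The lower Lgals1 in αβ T cells after Skint1 antibody was thus within counting error once cells with Trdc or meeting the ILC rule were left out. In the ILC class, Lgals1 stood at 2421 and 2834 CPM, a log2 ratio of 0.23 (0.11 to 0.34), and in its narrowed form at 2457 and 3124 CPM, a log2 ratio of 0.35 (0.21 to 0.49). The direction in the ILC class did not hold with cells of at most 5% mitochondrial UMIs, where the log2 ratio was -0.27 (-0.56 to 0.01).

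Lgals3 depended on which cells the ILC class held. Over the whole ILC class it stood at 1128 and 1192 CPM (log2 ratio 0.08, -0.09 to 0.25). In the narrowed class it stood at 1227 CPM in the isotype library and 862 CPM after Skint1 antibody, a log2 ratio of -0.51 (-0.73 to -0.29), and its sign differed from that of the whole class under 5 of 11 alternatives. The keratin-high barcodes, which had at least 20 UMIs over 5 keratin genes, numbered 5 and 24 and held Lgals3 at 3716 and 2670 CPM, well above all lymphocyte classes. In αβ T cells, Lgals3 stood at 1149 and 1057 CPM (log2 ratio -0.12, -0.26 to 0.01). The remaining members rested on 8 to 35 UMIs per library in αβ T and ILC cells. In the ILC class, Lgals3bp had a treatment ratio of -1.48 (-2.96 to -0.10) and Lgals8 of -1.17 (-2.33 to -0.04), and in its narrowed form both intervals held 0 (-0.60, -2.21 to 1.02, and -1.18, -2.95 to 0.47). In αβ T cells, Lgals8 had 0.66 (-0.26 to 1.62), and 1.56 (0.31 to 2.95, from 8 and 20 UMIs) in the narrowed class. The other intervals of these members, among them those of Lgals9, held 0. None of the 5 members was counted past 1.5-fold in αβ T or ILC cells, where 7.42% and 19.8% of all genes were. Lgals8, Lgals9 and Lgals3bp lay below 50 CPM in both libraries of these classes and so were not among the genes counted.

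**Figure D3:**
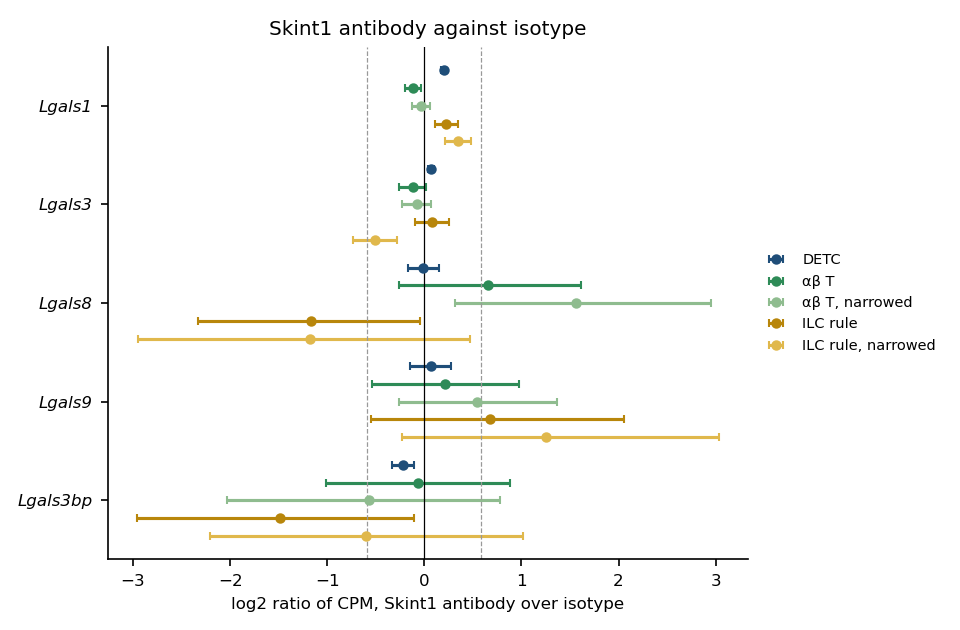
Log2 ratio of CPM, Skint1 antibody over isotype, for each of the 5 genes in DETCs, αβ T cells, the ILC class and the narrowed forms of the latter 2, with 95% counting intervals; dashed lines mark 1.5-fold. DETC points lie within 0.22 of 0, and the narrow Lgals1 interval in DETCs lies to the right of 0 while that of Lgals3bp lies to the left.

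The clearest differences were between cell classes within a library. Lgals1 was lower in DETCs than in αβ T cells, with log2 ratios of -1.10 (-1.16 to -1.04) under isotype and -0.79 (-0.85 to -0.72) after Skint1 antibody, so αβ T cells held 2.14 and 1.72 times the DETC level. Lgals3bp went the other way. Its level of 84.2 CPM in isotype DETCs compared with 26.2 CPM in αβ T cells (interval 16.2 to 40.1, 21 UMIs), and its 72.5 CPM in Skint1 antibody DETCs with 25.1 CPM (15.5 to 38.4, 21 UMIs). The log2 ratios were 1.68 (1.06 to 2.38) and 1.53 (0.91 to 2.23), or 3.21-fold and 2.89-fold. In thinned cells Lgals3bp was detected in 15.4% and 13.3% of DETCs against 5.26% and 5.61% of αβ T cells. Lgals3 differed less, by -0.42 (-0.52 to -0.32) and -0.23 (-0.32 to -0.13). Without the 10 cells with most Lgals3 UMIs of each class, its ratios were -0.22 and 0.004. That setting removes a larger part of the smaller αβ T class by construction. Lgals1 and Lgals3bp were the 2 members past 1.5-fold in each library, where 36.5% of all genes in the isotype library and 34.1% after Skint1 antibody were. Such differences between T cell classes were common, and the members' count is not a result about galectins. In the narrowed αβ T class, Lgals1 had ratios of -1.19 and -0.95 and Lgals3bp of 2.04 and 2.40.

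Lgals9, at 36.2 and 41.8 CPM in αβ T cells, was likewise lower in DETCs, with log2 ratios of -0.70 (-1.25 to -0.10) and -0.84 (-1.34 to -0.30). It was below the level at which genes were counted. Without the 10 cells with most Lgals9 UMIs of each class the ratios were 0.18 (-0.58 to 1.07) and -0.18 (-0.82 to 0.55). That setting removes a larger part of the small αβ T class by construction, so it cannot decide whether the difference holds. Against the narrowed αβ T class, where Lgals9 stood at 36.5 and 53.3 CPM, its log2 ratios were -0.71 (-1.30 to -0.06) and -1.19 (-1.72 to -0.61), and in the Skint1 antibody library it was there above 50 CPM and 2.28 times lower in DETCs. Lgals8 stood at 21.2 and 33.5 CPM in αβ T cells and its log2 ratio was 0.83 (0.14 to 1.62) under isotype and 0.17 (-0.38 to 0.77) after Skint1 antibody, and 1.70 (0.71 to 2.92, with 8 UMIs in αβ T cells) and 0.13 (-0.51 to 0.85) over the narrowed class.

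Against ILC cells the pattern of Lgals1 and Lgals3bp was similar. Lgals1 had a log2 ratio of DETC over ILC of -0.81 (-0.90 to -0.71) and -0.83 (-0.90 to -0.76), and of -0.83 and -0.97 over the narrowed class. With no upper limit on genes per cell the direction turned, to 0.89 and 1.09, in an ILC class whose keratinocyte markers then summed to 29922 and 32205 CPM. Lgals3bp stood at 33.9 CPM (13 UMIs) and 12.1 CPM (8 UMIs) in the ILC class. Its log2 ratio was 1.31 (0.53 to 2.22) and 2.58 (1.60 to 3.79), and 1.47 (0.49 to 2.69) and 1.85 (0.87 to 3.07) over the narrowed class. These 2 genes were past 1.5-fold in both libraries, beside 45.3% and 45% of all genes. With at most 5% mitochondrial UMIs, the Lgals3bp ratio in the isotype library was 0.36 (-0.87 to 1.99) and no longer past 1.5-fold. For Lgals3 the ratio of -0.39 (-0.53 to -0.25) in the isotype library was -0.51 (-0.67 to -0.35) over the narrowed class. In the Skint1 antibody library it was -0.40 (-0.50 to -0.29), and 0.07 (-0.09 to 0.23) over the narrowed class. With no upper limit on genes per cell, the Lgals3 ratios were -1.69 and -1.63, past 1.5-fold in both libraries.

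**Figure D4:**
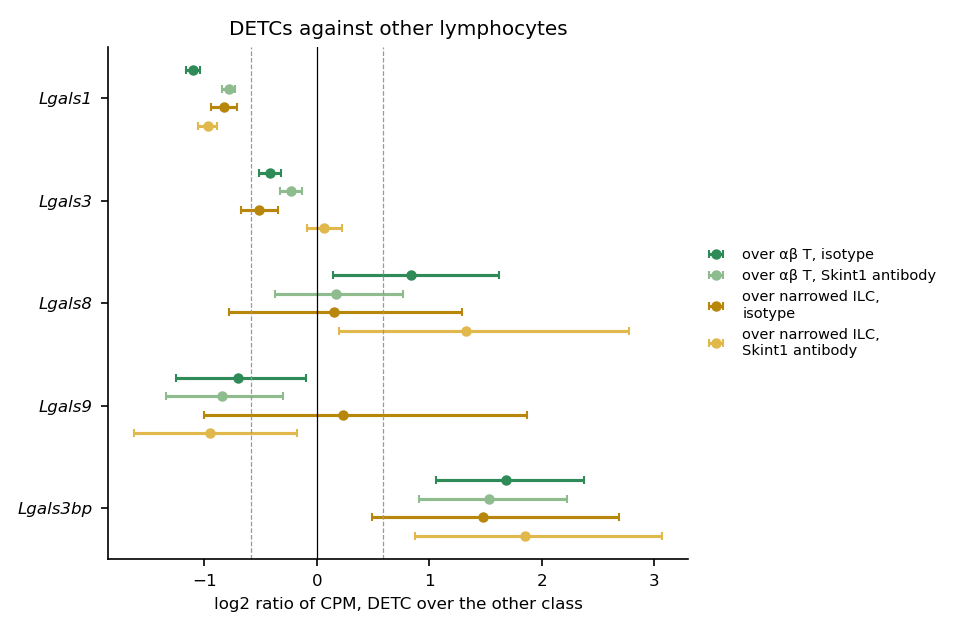
Log2 ratio of CPM, DETC over αβ T cells (green) and over the narrowed ILC class (gold), for each of the 5 genes in each library, with 95% counting intervals; dashed lines mark 1.5-fold. All 4 Lgals1 values lie beyond the line to the left, between -1.10 and -0.79, and all 4 Lgals3bp values beyond the line to the right, between 1.47 and 1.85.

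Within the αβ T class, Lgals3 was low in cells with Foxp3, the transcription factor of regulatory T cells. These 17 isotype cells held Lgals3 at 427 CPM (286 to 614, 29 UMIs) and the 12 Skint1 antibody cells at 253 CPM (116 to 480, 9 UMIs). A single cell held 15 of those 29 UMIs and another 6 of those 9, so each level rested largely on 1 cell, and most Foxp3 cells held none. Cells with Cd8a or Cd8b1 and no Cd4 held 1293 CPM (25 cells) and 1228 CPM (17 cells). The log2 ratio of Foxp3 over CD8 cells was -1.60 (-2.23 to -1.01) and -2.28 (-3.46 to -1.29), with intervals that take UMIs as independent and do not cover spread between these few cells. Among all genes in this contrast, Lgals3 stood at the 9.43rd and 0.915th percentile, and the median gene had 0.05 and 0.39. The share of genes past 1.5-fold was not computed for it. Thinned to 2000 UMIs, Lgals3 was detected in 6 of 15 and 2 of 8 Foxp3 cells, against 19 of 25 and 13 of 17 CD8 cells. Cells with Cd4 and no CD8 genes held Lgals3 at 1115 and 997 CPM. Lgals1 in Foxp3 cells stood at 2976 CPM in the isotype library, close to the 3003 CPM of CD8 cells, and at 1715 CPM after Skint1 antibody, against 3326 CPM of CD8 cells.

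DETCs in the cell cycle, those with at least 2 UMIs of Mki67, Top2a and Birc5, numbered 87 in each library and were compared with 3259 and 4561 DETCs with none. Lgals1 was higher in cycling DETCs, at 1808 against 1360 CPM in the isotype library and 1938 against 1575 CPM after Skint1 antibody. The log2 ratios were 0.41 (0.31 to 0.51) and 0.30 (0.20 to 0.39). Without the 10 cells with most Lgals1 UMIs of each group, they were 0.10 and 0.13. That setting removes a larger part of the smaller cycling group by construction. Lgals3 was lower in cycling DETCs of the isotype library, at 731 against 867 CPM (-0.25, -0.41 to -0.09), and its ratio after Skint1 antibody had an interval that held 0 (-0.08, -0.22 to 0.06). Lgals3bp had ratios of -0.05 (-0.56 to 0.42) and -0.37 (-0.97 to 0.18), and Lgals8 and Lgals9 rested on 10 to 22 UMIs in cycling DETCs. None of the 5 genes was past 1.5-fold, and 19.5% of all genes in the isotype library and 22.5% after Skint1 antibody were. Cycling DETCs were deeper, with a median of 5120 and 5588 UMIs against 3977 and 3521. Outside the cell cycle, the treatment ratio of Lgals1 was 0.21 (0.18 to 0.24), and in cycling DETCs 0.10 (-0.04 to 0.24).

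Lgals1 and Lgals3 were both lower in DETCs with many immediate early transcripts. Immediate early genes such as Fos, Jun, Egr1 and Nr4a1 are switched on within minutes of receptor signaling or stress. DETCs thinned to 2000 UMIs were ordered by the sum of 9 such genes, and cut near the lowest and highest 25% over both libraries, with ties included. The lowest group held at most 7 UMIs (908 isotype and 1362 Skint1 antibody cells) and the highest group at least 29 (878 and 1275 cells). Isotype DETCs held Lgals1 at 1664 CPM in the lowest group, 1348 CPM in between and 1126 CPM in the highest group. Skint1 antibody DETCs held 1990, 1540 and 1138 CPM. The log2 ratio of highest over lowest was -0.56 (-0.65 to -0.48) and -0.81 (-0.87 to -0.74), where the median gene had -0.22 and -0.21. Lgals3 went from 994 through 866 to 731 CPM in isotype DETCs and from 1065 through 884 to 702 CPM in Skint1 antibody DETCs, with log2 ratios of -0.44 (-0.55 to -0.34) and -0.60 (-0.69 to -0.52). Lgals1 stood at the 14.3rd and 2.65th percentile of all genes in this contrast and Lgals3 at the 24.5th and 9.83rd.

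Lgals3bp did not follow. It stood at 92.0, 86.2 and 81.4 CPM in isotype DETCs and at 76.7, 63.2 and 84.3 CPM in Skint1 antibody DETCs, and the ratios of highest over lowest had intervals that held 0 (-0.18, -0.51 to 0.16, and 0.14, -0.15 to 0.42). For Lgals8 the log2 ratios were -0.76 (-1.26 to -0.26) in isotype DETCs and -0.25 (-0.66 to 0.15) in Skint1 antibody DETCs. For Lgals9 the ratios were -0.01 (-0.64 to 0.61) and -0.43 (-0.98 to 0.11). The treatment ratio of Lgals1 was 0.26 (0.19 to 0.32) in the lowest group, 0.19 (0.14 to 0.25) in between and 0.02 (-0.07 to 0.10) in the highest group. The higher Lgals1 of the Skint1 antibody library was therefore seen in DETCs with few or intermediate immediate early transcripts, and in the highest group it was within counting error. The difference between these groups was not tested.

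**Figure D5:**
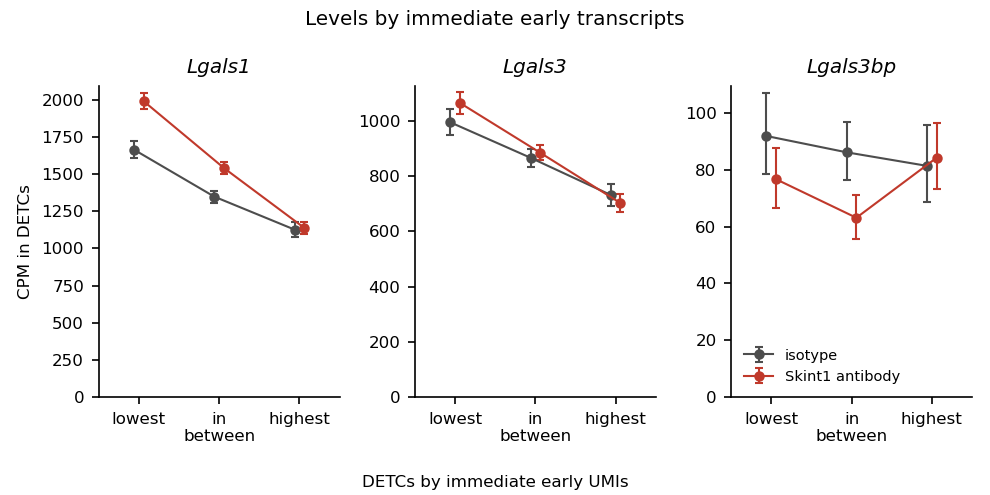
CPM of Lgals1, Lgals3 and Lgals3bp (linear axes from 0) in DETCs thinned to 2000 UMIs and split by immediate early UMIs, with isotype in gray and Skint1 antibody in red and 95% counting intervals as bars. Lgals1 and Lgals3 step down from the lowest to the highest group in both libraries, and the libraries meet at 1126 and 1138 CPM of Lgals1 in the highest group.

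By interferon-stimulated transcripts, no member was clearly higher. DETCs with at least 4 UMIs over 11 such genes (188 and 335 cells) were set against those with at most 1 (2468 and 3231 cells). Lgals3bp and Lgals9, both known as interferon-responsive genes and both with IRF letters in the windows above, had log2 ratios of 0.04 (-0.50 to 0.55) and 0.01 (-1.34 to 1.12) in the isotype library. In the Skint1 antibody library they had -0.29 (-0.79 to 0.18) and -0.17 (-1.11 to 0.65). The Lgals9 values rested on 7 and 13 UMIs in the interferon-high cells, so a log2 ratio as high as 1.12 lay within counting error in the isotype library. Lgals3 was lower in interferon-high DETCs, with log2 ratios of -0.26 (-0.44 to -0.08) and -0.15 (-0.28 to -0.02), and so was Lgals1 after Skint1 antibody (-0.12, -0.22 to -0.02) but not under isotype (0.02, -0.12 to 0.14). Between treatments, Lgals3bp in interferon-high DETCs stood at 90.4 CPM (34 UMIs) under isotype and 59.7 CPM (40 UMIs) after Skint1 antibody, which is 1.51 times lower with an interval that held 0 (-0.60, -1.30 to 0.10).

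Of the other galectin family genes, 6 were found by symbol (Lgals2, Lgals4, Lgals7, Lgals12, Lgalsl and Grifin). None reached 50 CPM in DETCs, and the highest there were Lgalsl at 23.2 and 20.3 CPM and Lgals7 at the level given above. Lgals2 and Lgals12 had 0 UMIs in DETCs of both libraries, which allows at most 0.205 and 0.160 CPM by 3 counts. Lgals7 was past 1.5-fold higher after Skint1 antibody in the ILC class, at 188 and 1216 CPM, where 19.8% of all genes were past it in either direction. Its UMIs lay in 4 of 82 and 13 of 139 cells, and up to 69 and 177 of them in a single cell. It is one of the keratinocyte markers by which the narrowed class was made, so its level there is set by the filter. In keratin-high barcodes it stood at 9838 and 8575 CPM.

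Of 18 glycan enzymes that build or cap galectin ligands, 2 reached 50 CPM in DETCs and neither was past 1.5-fold between treatments. They were Mgat4a, which adds a branch to N-glycans, at 78.3 and 68.5 CPM, and the sialyltransferase St3gal4 at 64.1 and 61.9 CPM. Against αβ T cells, 4 and 3 of the 18 were counted, of which Mgat4a (log2 ratio 1.51 and 1.09) and St3gal4 (1.98 and 0.89) were past 1.5-fold higher in DETCs and B4galt1, which adds galactose, past 1.5-fold lower (-0.84 and -0.80). Against the ILC class, 5 and 4 were counted, with the same 2 genes higher and B4galt1 and Mgat5 lower. Of all genes, 36.5% and 34.1% were past 1.5-fold against αβ T cells and 45.3% and 45% against the ILC class. Over narrowed ILC cells of the Skint1 antibody library, B4galt1 was within 1.5-fold (-0.56, -1.15 to 0.11). Mgat5 makes the N-glycan branches that galectin-3 binds, and it stood at 8.12 and 7.11 CPM in DETCs, 38.7 and 32.3 CPM in αβ T cells and 90.9 and 92.7 CPM in narrowed ILC cells. Between treatments, Man2a1 was past 1.5-fold lower in αβ T cells (-0.72, -1.42 to -0.05) and Mgat2 in the ILC class (-0.67, -1.53 to 0.19), where 7.42% and 19.8% of all genes were past it. In the narrowed classes Man2a1 had -0.73 (-1.51 to 0.01) and Mgat2 -0.40 (-1.53 to 0.74), while B4galt1 had -0.83 (-1.70 to 0.03) in narrowed ILC cells. In cycling DETCs Mgat2 went the other way (1.51, 0.38 to 2.78, from 9 and 27 UMIs).

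Of 11 galectin-binding partners, 7 reached 50 CPM in DETCs, none was past 1.5-fold between treatments there, and their median log2 ratio was -0.07, against -0.03 over all genes. Cd7, the T cell glycoprotein bound by galectin-1, was the highest, at 2692 and 3106 CPM in DETCs, against 352 and 549 CPM in αβ T cells and 60.1 and 60.7 CPM in ILC cells. Ptprc (CD45) followed at 944 and 956 CPM. Against αβ T cells, Cd7 (2.93 and 2.50) and the lysosomal glycoprotein gene Lamp2 (0.99 and 0.78) were past 1.5-fold higher in DETCs in both libraries and Ptprc after Skint1 antibody (0.63), while Spn, which encodes CD43 (-0.77 and -0.69), and Cd44 (-1.23 and -1.22) were past 1.5-fold lower. Against the ILC class, Cd7 and Ptprc were higher and Spn and Cd44 lower in both libraries. These 4 or 5 of 7 counted partners stand beside 36.5% and 34.1% of all genes past 1.5-fold against αβ T cells and 45.3% and 45% against the ILC class. Between treatments, Cd7 was past 1.5-fold higher in αβ T cells (0.64, 0.42 to 0.86), the class in which cells with Trdc were more frequent after Skint1 antibody. The direction turned in the narrowed αβ T class, where Cd7 stood at 194 CPM under isotype and 84.2 CPM after Skint1 antibody (-1.20, -1.71 to -0.72). Spn was lower in the ILC class (-0.76, -1.34 to -0.17) and in its narrowed form (-0.84, -1.50 to -0.18). Of all genes, 7.42% in αβ T cells and 19.8% in the ILC class were past 1.5-fold between treatments. Cd7 was past 1.5-fold lower in cycling than in non-cycling DETCs of the Skint1 antibody library (-0.66, -0.75 to -0.57), where 22.5% of all genes were past it. In the isotype library it was within 1.5-fold.

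Genes most like a member were sought among 3918 genes by Pearson's r of log2(CPM + 10) over 8 points, the non-cycling DETCs, cycling DETCs, αβ T cells and ILC class of both libraries. The points share libraries and the value is a description. Lgals1 was most like Smco4 (0.972), Crip1 (0.971) and Myl6 (0.970), Lgals3 most like Stap1 (0.987), Mapkapk3 (0.984) and Tank (0.978), and Lgals3bp most like Efhd2 (0.986), Cdv3 (0.985) and Sytl2 (0.983). Crip1 had 3483 and 4096 CPM in non-cycling DETCs and 8226 and 9282 CPM in αβ T cells, and Efhd2 331 and 333 CPM against 94.9 and 109 CPM.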

How the data were processed

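The 2 libraries were made with the 10x Genomics 3′ v3 chemistry. The deposited files are UMI counts per gene and barcode, which the authors made with CellRanger 3.0.2 and its mm10 index 3.0.0, for 6794880 barcodes before any cell filter. Cells were kept by the limits stated with the results. Each class was given the sum of its cells' UMIs, divided by its total (CPM), with exact Poisson intervals. Log2 ratios of CPM had no pseudocount and exact conditional binomial intervals, and shares of cells had Clopper-Pearson intervals. A gene was counted past 1.5-fold among genes with at least 50 CPM in either group. With 1 library per treatment no test was run, and cells were not treated as replicates. Doublets were kept, since Scrublet at its own threshold marked 1 and 0 barcodes. An alternative left out the highest scores by an expected rate of 0.8% per 1000 barcodes. Thinning drew 2000 UMIs per cell without replacement. The calculation of ratios and intervals was tested on simulated data. Python 3.11.15, numpy 2.4.6, scipy 1.17.1, pandas 2.3.3 and scanpy 1.11.5 were used. Named genes were the 5 members, genes of 3 fixed lists past 1.5-fold or among the 2 highest in DETCs, and the 3 genes most like a member. Members and lists were chosen with earlier results of these data known. Marker lists for fibroblasts and melanocytes summed to at most 0.341 CPM in DETCs.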

Additional observations from a re-analysis of the deposited data

Results flagged for a closer look

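Lgals1 was marked because its difference between treatments had opposite signs in 2 cell classes, each with a counting interval that left out 0. The log2 ratio of Skint1 antibody over isotype was 0.20 in DETCs and -0.11 in αβ T cells, a gap of 0.32. The ratio in αβ T cells was also opposite to that in the ILC class, where it was 0.23, and the gap of αβ T over ILC cells was -0.34. With at most 5% mitochondrial UMIs the ratio in the ILC class was -0.27 (-0.56 to 0.01), so the opposite sign was lost there. Neither gap was tested, since each treatment had 1 library. Cells with at least 3 Trdc UMIs made up 9.14% of αβ T cells in the isotype library and 20.7% after Skint1 antibody, and in the narrowed αβ T class the ratio was -0.04 (-0.13 to 0.06).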

How the results depend on the processing

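No paired analysis was possible because each treatment had 1 library. The counts of members past 1.5-fold in 9 comparisons were recomputed under 11 alternatives, 10 of them planned and the narrowed classes added after seeing the data, and 88 of 99 counts stayed within 1.5 times the reported count. In DETCs between treatments the count was 0 under all 11. With genes counted from 10 CPM, which only widens the genes counted, 1 member was past 1.5-fold between treatments in αβ T cells, 3 in the ILC class and 4 in isotype DETCs over αβ T cells. With at most 5% mitochondrial UMIs, 1 was past it between treatments in the ILC class and 1 in Skint1 antibody DETCs over ILC. Thinned to 2000 UMIs, 1 was past it between treatments in the ILC class and 1 in cycling DETCs of the Skint1 antibody library. Without the 10 cells with most UMIs of a member, which removes a larger part of a small class by construction, 1 was past it in DETCs over ILC in each library, and 2 and 1 in cycling DETCs of the isotype and Skint1 antibody libraries. With no upper limit on genes, Lgals1 was higher in DETCs than in the ILC class (log2 ratio 0.89 and 1.09), which then held 134 and 220 cells and keratinocyte markers at 29922 and 32205 CPM. Other causes were not tested.

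In DETCs the treatment ratio of Lgals1 ranged from 0.18 to 0.26, that of Lgals3 from 0.04 to 0.10 and that of Lgals3bp from -0.25 to -0.10, while Lgals8 changed sign under 3 alternatives and Lgals9 under 1. Over αβ T cells, Lgals1 in DETCs ranged from -1.22 to -0.95 and from -0.95 to -0.67, and Lgals3bp stayed at or above 1.40 and 1.23, in the isotype and Skint1 antibody libraries. Between treatments in the ILC class, Lgals1 ranged from -0.27 (at most 5% mitochondrial UMIs) to 0.39 and Lgals3 from -0.51 to 0.42. In isotype DETCs over ILC, Lgals3bp ranged from 0.36 (at most 5% mitochondrial UMIs) to 4.75 (without the 10 cells with most UMIs), and 1.85 was its lowest value in the Skint1 antibody library. In isotype DETCs over αβ T cells, Lgals9 turned to 0.18 without the 10 cells with most UMIs, which takes more from the smaller class by construction. With the immediate early groups set within each library (chosen after seeing the data), the Lgals1 ratio between treatments was 0.29 in the lowest and 0.02 in the highest group. Depth limited Lgals8 and Lgals9 most, and Lgals3bp outside DETCs.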
